A study of Mus musculus with 26 samples.

Results

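A set of 61 mouse genes was defined by its behaviour in 2 incomplete chemical reprogramming courses, out of 16718 genes in the deposited table. A member had a value of 5 or more on all 5 sampled days of the course run without Chir, and a mean value of 1 or less over the same 5 days of the course run without BrdU. The first condition was met by 13047 genes and the second by 1005. Both were met by 69, of which 8 were left out because their symbols belong to families such as the keratins, cathepsins and serpins. The values on days 6 to 30 of those 2 courses therefore chose the members and are given as a description, with no test. The members include a group of intestinal defensin genes, 3 PRAME-like genes, genes of secreted and barrier proteins, receptors and channels, and 4 transcription factor genes, among them Cdx2 and Isx.

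Chemical reprogramming turns fibroblasts into pluripotent stem cells with small molecules and no introduced transcription factor genes. Chir (CHIR99021) inhibits the kinase GSK3, which lets beta-catenin accumulate and act with TCF/LEF factors on Wnt target genes. BrdU (bromodeoxyuridine) is a thymidine analogue that dividing cells build into their DNA. Many of the members are known from differentiated or germline tissues: alpha-defensins are antimicrobial peptides of Paneth cells in the small intestine, PRAME-like and MAGE genes are mostly read in germ cells and early embryos, and Cdx2 specifies trophectoderm and intestinal epithelium.

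RNA sequencing covered 26 libraries in 5 groups. MEF, mouse embryonic fibroblasts at day 0, had 1 library, and a course labelled as all chemical, called the full course here, had 1 library on each of days 6, 12, 18, 22, 30, 36 and 40. The minus BrdU course had the same 7 days, the minus Chir course had days 6, 12, 18, 22 and 30, and CiPSC, chemically induced pluripotent stem cells, had 6 libraries. The labels used here name no strain, sex, dose or other chemicals, so that the 3 courses share the rest of the cocktail is known only from their names.

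The starts of 6 members are shown, 3 defensin genes because they lie at 1 locus, and Cdx2, Mageb16 and Car4 because they are among the members that rose over the full course. Each window runs from 250 bases before to 50 after the RefSeq start, on build GRCm38.p6. The windows are Defa31 at chr8:21191323-21191622 (plus strand), Defa22 at chr8:21162027-21162326 (plus strand), AY761185 at chr8:20944699-20944998 (minus strand), Cdx2 at chr5:147307200-147307499 (minus strand), Mageb16 at chrX:79671386-79671685 (minus strand) and Car4 at chr11:84957504-84957803 (plus strand). They are printed 5′ to 3′ on the strand of the gene. Capitals mark exact matches, on either strand, to CTTTGAT (the core read by TCF/LEF factors, ATCAAAG when on the other strand), TATAAA (the TATA box), ATGCAAAT (the octamer read by POU factors) and TGTTTAC (a forkhead core, GTAAACA when on the other strand).
Defa31: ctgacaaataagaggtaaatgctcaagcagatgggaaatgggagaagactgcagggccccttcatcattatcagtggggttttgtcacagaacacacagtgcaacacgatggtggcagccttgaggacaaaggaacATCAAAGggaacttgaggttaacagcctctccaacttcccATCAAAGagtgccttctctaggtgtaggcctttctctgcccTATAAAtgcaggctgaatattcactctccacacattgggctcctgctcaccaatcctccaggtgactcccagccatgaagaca
Defa22: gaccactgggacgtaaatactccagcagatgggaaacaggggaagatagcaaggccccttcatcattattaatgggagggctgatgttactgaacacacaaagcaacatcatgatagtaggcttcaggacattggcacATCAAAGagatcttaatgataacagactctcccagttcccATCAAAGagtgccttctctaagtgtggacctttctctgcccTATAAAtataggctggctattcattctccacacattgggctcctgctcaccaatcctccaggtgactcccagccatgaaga
AY761185: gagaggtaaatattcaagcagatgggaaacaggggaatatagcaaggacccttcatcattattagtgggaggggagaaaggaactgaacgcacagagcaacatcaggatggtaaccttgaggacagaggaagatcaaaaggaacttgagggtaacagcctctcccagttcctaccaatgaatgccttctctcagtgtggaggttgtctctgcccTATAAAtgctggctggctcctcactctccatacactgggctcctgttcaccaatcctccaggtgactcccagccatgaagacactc
Cdx2: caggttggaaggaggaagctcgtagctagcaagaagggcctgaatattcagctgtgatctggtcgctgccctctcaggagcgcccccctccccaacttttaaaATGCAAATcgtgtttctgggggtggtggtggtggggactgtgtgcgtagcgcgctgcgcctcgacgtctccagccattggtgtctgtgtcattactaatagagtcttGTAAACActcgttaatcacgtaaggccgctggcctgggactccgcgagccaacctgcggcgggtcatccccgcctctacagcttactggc
Mageb16: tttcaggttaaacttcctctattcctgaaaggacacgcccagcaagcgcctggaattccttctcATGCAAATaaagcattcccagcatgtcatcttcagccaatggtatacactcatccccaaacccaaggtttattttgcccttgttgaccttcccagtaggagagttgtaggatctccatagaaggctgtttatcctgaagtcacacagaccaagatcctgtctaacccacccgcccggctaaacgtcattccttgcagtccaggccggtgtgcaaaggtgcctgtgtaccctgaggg
Car4: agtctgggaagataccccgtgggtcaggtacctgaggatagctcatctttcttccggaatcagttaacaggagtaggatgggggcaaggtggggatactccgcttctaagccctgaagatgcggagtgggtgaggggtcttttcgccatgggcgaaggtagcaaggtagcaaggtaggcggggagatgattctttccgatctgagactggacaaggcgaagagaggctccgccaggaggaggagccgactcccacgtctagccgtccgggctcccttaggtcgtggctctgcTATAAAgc
Defa31 and Defa22 each held CTTTGAT at 2 places on the reverse strand, ahead of a TATAAA, and AY761185 held the TATAAA alone. In pairwise alignments, the Defa31 and Defa22 windows were identical at 83.8% of aligned positions (248 of 296), Defa31 and AY761185 at 82.1% (239 of 291), and Defa22 and AY761185 at 84.3% (247 of 293). Cdx2 held ATGCAAAT and a reverse TGTTTAC, and Mageb16 held ATGCAAAT. The TATAAA of Car4 lay after the annotated start.

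Over all members with a RefSeq window (50 of 61), the windows were poor in CpG. The median was 5 CpG, against 19 over the 12552 genes of the table with a window, and 52% of members had at most 5, against 16.2%. The 692 genes of the table with a window that met the minus BrdU condition, members included, also had a median of 5 CpG. Of them, 51.3% had at most 5. CTTTGAT stood in 5 member windows (Defa31, Defa22, Skint10, Gm5524 and Gm13078), which is 10%, against 2.68% of all windows and 5.35% of the windows of genes silent without BrdU. TATAAA stood in 20.0% of member windows, 8.91% of all windows and 18.5% of the silent genes' windows. Defa31 and Defa22 are neighbouring copies with windows identical at 83.8% of aligned positions, so their CTTTGAT matches are not independent occurrences. The same holds for TATAAA in Defa31, Defa22 and AY761185. The differences between these shares were not tested.

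The other searches gave smaller shares. The octamer ATGCAAAT stood in 6.0% of member windows, against 1.57% of all windows and 2.31% of those of the silent genes. For the forkhead core TGTTTAC the shares were 4.0%, 2.58% and 3.47% in the same order. For the GATA site, searched as AGATAA, they were 8.0%, 7.09% and 11.6%. For the AP-1 site, searched as TGACTCA, they were 4.0%, 3.98% and 4.62%. For the SOX site, searched as ACAATGG, they were 4.0%, 2.08% and 3.9%. Both strands were searched, and none of the 7 motifs contains another. A match describes the letters of a window and is no evidence of binding.

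The values are whole-number scores brought to a common distribution by the authors. They are not counts. Totals per library lay between 4143561 and 4162600, the median gene value was 77 in each library (76 in CiPSC library 5), and the depth behind a value is unknown. A value of 5, the lower bound for members, lay above 14.4% to 15% of the genes of a minus Chir library, so most members are low genes even where they are on. Genes tied at the lowest rank are listed at values that climb with their row in the table, up to 1 in the courses, 2 in MEF and 5 in a CiPSC library, so that differences between values below 5 can rest on that order. Each test below was therefore repeated with values below 5 set to 5. The labelled cell types carried their markers: the median log2(value + 1) of 21 fibroblast and mesenchymal genes was 10.57 in MEF and 3.19 in CiPSC, and that of 30 pluripotency genes was 1.0 and 9.63. Bulk RNA cannot tell fewer cells of a type from less RNA per cell.

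Without BrdU, 29 members were listed at 0 on all 5 days from 6 to 30, and 20 were at 0 on all 7 days. The highest value of any member on days 6 to 30 was 4. Without Chir the median member value was 15, 20, 28, 28 and 17 on days 6, 12, 18, 22 and 30, and the highest was 348. In the full course, which the rule did not use, the median was 3, 6, 6, 3, 3, 2 and 1 over the 7 days. The median was 0 in MEF and 0 or 1 in each CiPSC library.

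At the lower bound of the rule, 7 members had a lowest minus Chir value of 5, among them Fam78a (9, 10, 8, 5 and 10 over the 5 days), Gm10696 (5, 7, 16, 10 and 8) and Rims3 (9, 12, 7, 14 and 5). Just outside lay 15 genes with a lowest value of 4, among them the defensin gene Defa34 (4, 49, 90, 36 and 34), Orm1 (4, 4, 16, 32 and 95) and Ppp2r2c (4, 14, 40, 48 and 42). At the upper bound without BrdU, 5 members were inside with a mean of 1 (Map3k21, Coro1a, Cbln2, Gm13089 and Klk6), and Kcnk12 and Grm4 with 1.2 and Snx20 with 1.4 were outside. The members named at the lower bound are those with the lowest minus Chir means, and the genes named outside it those with the highest. Their levels are therefore not compared. At the upper bound the minus Chir values of members inside (up to 74, in Gm13089) and of genes outside (up to 60, in Snx20) overlapped.

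The full course, which has both chemicals, was set beside minus Chir. On days 6 to 30, minus Chir stood above the full course on all 5 days for 40 of 61 members, where 17.7% of all genes did so. The reverse held for 1 member, Map3k21, against 15.5% of all genes. For 29 members the lowest minus Chir day lay above the highest full course day, against 8.5% of all genes, and for none the reverse, against 7.61%. Because the rule asked for a value in every minus Chir library, these counts carry its choice. The median difference over members was 2.31 on the log2(value + 1) scale (range -1.44 to 5.99), and 1.27 (range -1.96 to 5.16) with values below 5 set to 5. The median over all genes was 0.0. In the full course 26 members had a mean of 5 or more on days 6 to 30, against 88.6% of all genes, and 5 had a mean of 1 or less, against 3.94%. Over its 7 days, 32 members exceeded 10 at least once, against 89.7%.

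**Figure D1:**
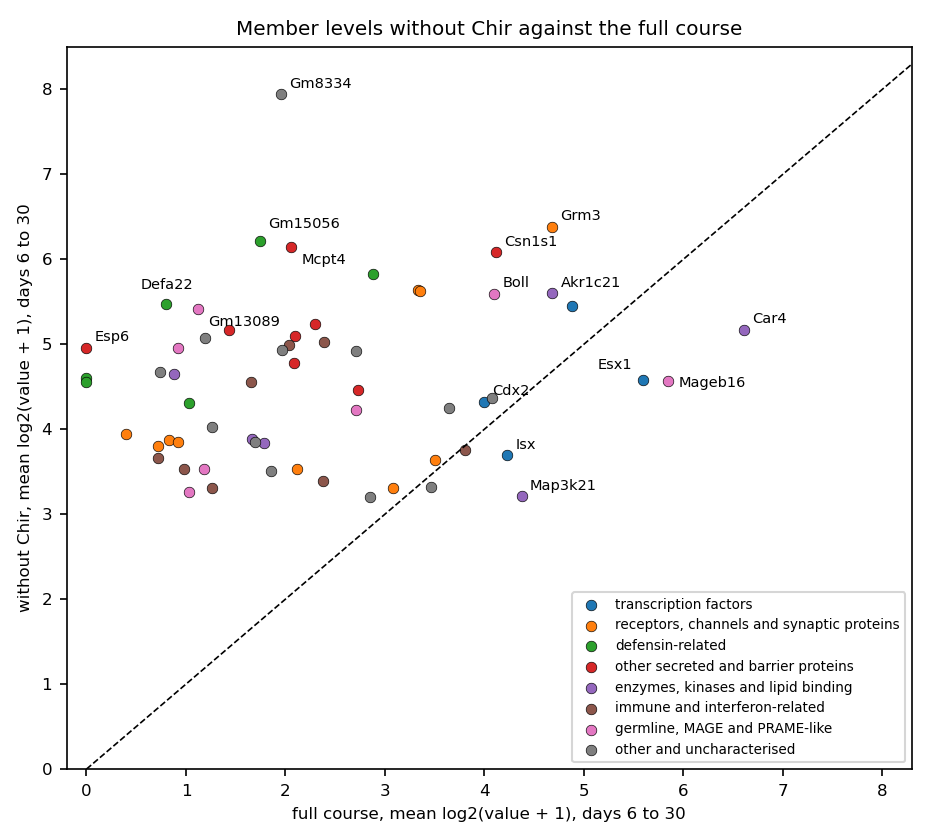
Mean log2(value + 1) over days 6 to 30 without Chir (vertical) against that in the full course (horizontal), 1 point per member, coloured by role. Most members lie above the line of equal level, Gm8334 furthest, and 7 lie below it, Car4, Mageb16, Map3k21 and Esx1 among them.

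The 6 defensin-related members, on 1 stretch of chromosome 8 (20900606 to 21392791), were all far above the full course. Each was above it on all 5 days with no overlap, and their median difference was 4.52 (range 2.94 to 4.68), or 2.40 with values below 5 set to 5. Defa3 was listed at 18, 65, 112, 72 and 55 without Chir and at 11, 6, 3, 12, 4, 8 and 4 over the 7 days of the full course. Defa22 had 20, 50, 70, 65 and 34 without Chir and 7, 0, 0, 0, 1, 0 and 0 in the full course. Gm15056, which RefSeq also lists as Defb52, a beta-defensin name, had 56, 58, 75, 74 and 119 without Chir and 6, 14, 3, 0, 0, 0 and 0 in the full course.

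For Defa3, Defa22 and Gm15056 every minus Chir day lay above every full course day. Defa31 had 12, 12, 24, 32 and 21 without Chir and at most 8 in the full course. Defa33 (7, 26, 44, 41 and 20) and AY761185 (20, 28, 20, 10 and 51) were listed at 0 on all 7 full course days. In MEF all 6 were at 0, and without BrdU all 6 stayed at 2 or below on days 6 to 30.

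Not every defensin gene of that stretch was a member. Defa21 missed the minus Chir bound, with 7, 36, 57, 42 and 3, and was at 0, 0, 2, 0 and 0 without BrdU. Defa30 had 24, 41, 71, 46 and 71 without Chir but 5, 10, 10, 12 and 3 without BrdU. The alpha-defensin copies are close in sequence, as their starts above show, and how the authors' counting shared reads among copies is not given in the sources used here, so the value of any single copy is uncertain. Chromosome 8 held 9 of the 61 members, where 4.93% of the genes of the table with a position lie on it. These 9 include the 6 defensin-related members of that stretch, and the others are Hsd11b2, Isx and Map3k21.

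The 7 germline, MAGE and PRAME-like members were split in the full course. The PRAME-like genes Gm13089 (Pramel23 in RefSeq), Gm13078 (Pramel24) and Gm13102 lie within 1 stretch of chromosome 4 (143696500 to 144110101). Gm13089 was listed at 16, 42, 62, 74 and 40 without Chir and at 1 or 2 on all 7 days of both the full course and minus BrdU. Gm13102 had 15, 22, 48, 33 and 46 without Chir and reached 8 in the full course, on day 40. Gm13078 had 8, 8, 14, 16 and 9 without Chir and at most 4 in the full course.

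The PRAME-like neighbours Pramef25 and Pramef17 stood at 4 or below on every minus Chir day, so genes of this stretch differed in this course. Boll, an RNA-binding protein of meiotic male germ cells, had 38, 51, 40, 64 and 48 without Chir and 34, 28, 30, 46, 0, 14 and 32 in the full course. Its 2 ranges overlapped. Mageb16, of the MAGE family on the X chromosome, was the reverse case, with 15, 34, 12, 24 and 40 without Chir, 16, 30, 86, 102, 134, 172 and 191 in the full course, and 288 to 865 (median 652.5) in the 6 CiPSC libraries. The full course exceeded minus Chir from day 18 on.

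The 4 transcription factor genes lay on both sides of the full course, with differences of -1.01 to 0.56 (median -0.10), and 1 of them, Tbx20, was above it on all 5 days. With values below 5 set to 5, the differences were -1.13 to 0.56 (median -0.42). Isx, an intestine-specific homeobox factor, was listed at 10, 10, 10, 15 and 16 without Chir and at 1, 20, 14, 26, 134, 99 and 76 in the full course. Cdx2, the only member on the Wnt target list and with Esx1 on the trophoblast list, had 7, 14, 42, 36 and 16 without Chir and 1, 9, 16, 44, 66, 80 and 32 in the full course. Esx1, an X-linked homeobox gene of placenta and testis, had 11, 24, 44, 30 and 18 without Chir and 3, 70, 189, 168, 28, 19 and 5 in the full course.

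For all 3 the full course and minus Chir ranges overlapped, and Isx and Cdx2 reached their highest values late in the full course while Esx1 reached its highest on day 18. Without BrdU each stood at 1 or below on all 7 days. Tbx20, a T-box factor of the developing heart, had 24, 36, 63, 56 and 46 without Chir, 20, 28, 38, 44, 20, 26 and 10 in the full course, 10 in MEF and 16 to 56 in CiPSC, and was at 0 on all 7 days without BrdU. It was above 5 in every library other than those without BrdU.

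The enzymes were led by Car4, a membrane-anchored carbonic anhydrase. It was listed at 8, 20, 46, 54 and 124 without Chir, at 0, 22, 265, 428, 3414, 2628 and 1792 in the full course, at 0 in MEF and at 0 or 1 in CiPSC. No other member exceeded 348 in any course library, and the full course level of Car4 was the highest of any member in any library. Akr1c21, a hydroxysteroid dehydrogenase, had 39, 52, 82, 90 and 16 without Chir and 0, 38, 75, 107, 34, 45 and 0 in the full course, with overlap. Hsd11b2, which inactivates glucocorticoids, had 22, 18, 34, 38 and 16 without Chir and at most 6 in the full course, with none. Map3k21, a mixed-lineage kinase, stood lower without Chir (6, 10, 9, 10 and 7) than in the full course (8, 12, 19, 38, 41, 24 and 20) on each shared day.

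The 8 other secreted and barrier proteins stood above the full course by 1.73 to 4.96 (median 2.98), and 7 did so on all 5 days. With values below 5 set to 5, the differences were 1.41 to 3.34 (median 2.38). Csn1s1, the milk protein alpha-S1 casein, had 60, 74, 84, 78 and 46 without Chir and 24, 53, 60, 18, 0, 0 and 0 in the full course. It was at 0 in MEF, in all 7 minus BrdU libraries and in all 6 CiPSC libraries. Mcpt4, a mast cell chymase, had 53, 64, 117, 136 and 30 without Chir and 10, 6, 3, 3, 0, 0 and 0 in the full course.

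Csn1s1 and Mcpt4 were thus listed above 0 early and at 0 late in the full course, and the 2 courses overlapped for Csn1s1 and not for Mcpt4. Lce1g, of the late cornified envelope family of the skin, went to 121 and 172 on days 18 and 22 without Chir from 6 and 18 before, and Klk6, a kallikrein protease, to 63 and 65 from 6 and 24. Both were far lower on day 30, at 20 and 6. Esp6, an exocrine gland-secreted peptide, had 10, 44, 60, 74 and 12 without Chir and was at 0 in all the other libraries. Its annotation overlaps Gm44501 on the same strand, so its reads could be shared. Hamp, the iron hormone hepcidin, had 14, 28, 55, 42 and 14 without Chir and at most 10 in the full course.

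Receptors, channels and synaptic proteins gave 10 members, 7 of them above the full course on all 5 days (median difference 2.29, range 0.13 to 3.55). With values below 5 set to 5, the median difference was 1.22 (range -0.07 to 2.31). Grm3, a metabotropic glutamate receptor, had 97, 73, 83, 76 and 86 without Chir and 56, 48, 19, 8, 21, 10 and 0 in the full course, and was already at 20 in MEF. P2rx2, an ATP-gated cation channel, had 48, 95, 91, 46 and 14 without Chir and at most 20 in the full course. Qrfpr, the receptor of the neuropeptide QRFP, had 54, 48, 47, 53 and 42 without Chir and 24, 15, 4, 7, 6, 5 and 1 in the full course. The 2 courses did not overlap for Grm3 and Qrfpr, and did for P2rx2. Grm3 was also one of 4 members at 5 or more on day 36 or 40 without BrdU, at 21 on day 40.

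Of the 8 immune and interferon-related members, 4 lay above the full course on all 5 days with no overlap (median difference of the 8, 2.59). With values below 5 set to 5, the median difference of the 8 was 0.91 (range -0.37 to 2.21). Selplg, the P-selectin ligand of leukocytes, had 8, 11, 14, 22 and 11 without Chir, 1, 16, 24, 38, 15, 12 and 14 in the full course and 16 in MEF. Coro1a, an actin-binding coronin of leukocytes, had 10, 9, 12, 12 and 10 without Chir, at most 4 in the full course and 67 in MEF. Macrophage markers were also present in these libraries: all 12 listed markers were at 5 or more in MEF (summed value 4919), 5 to 11 in the minus Chir libraries (sum 689 to 798), 4 to 6 in the full course (213 to 591), 5 to 8 without BrdU (242 to 535) and 1 to 4 in CiPSC (30 to 85). Ptprc, which marks all leukocytes, was at 0 on 3 of the 5 minus Chir days. It was also at 0 on days 6, 22, 30, 36 and 40 of the full course. Without BrdU it was at 0 on every day but day 22, and it was at 0 in all 6 CiPSC libraries. The part of such cells in the Coro1a and Selplg values was not tested. Coro1a also overlaps Bola2 on the opposite strand, and the sources used here do not give whether strand was used in the counting.

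The other and uncharacterised members held the highest minus Chir level. Gm8334, which GENCODE gives as protein coding and RefSeq as a pseudogene, is on chromosome X (148613253 to 148615153, minus strand). It was listed at 86, 280, 328, 348 and 318 without Chir, at 5, 7, 8, 0, 1, 0 and 1 in the full course, and at 0 or 1 on all 7 days without BrdU. Every minus Chir day lay above every other library, where the highest value was 13, in 1 CiPSC library. The difference from the full course was 5.99, or 5.16 with values below 5 set to 5, the largest of the 61 on both scales.

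By day, 21 members were highest on day 22 without Chir, 15 on day 18, 11 on day 30, 6 on day 6 and 4 on day 12, leaving ties out. Over all genes, 13.1%, 10.8%, 31.9%, 20.2% and 15.3% were highest on those days in that order. The rule set a lower bound on each day and no order of days, but used all these libraries, so this is a description. The full course, counted the same way over its 7 days, had 11, 11, 10, 9, 7, 2 and 5 members highest on days 6, 12, 18, 22, 30, 36 and 40, against 21.9%, 11.0%, 11.4%, 11.6%, 15%, 8.83% and 13.3% of all genes.

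**Figure D2:**
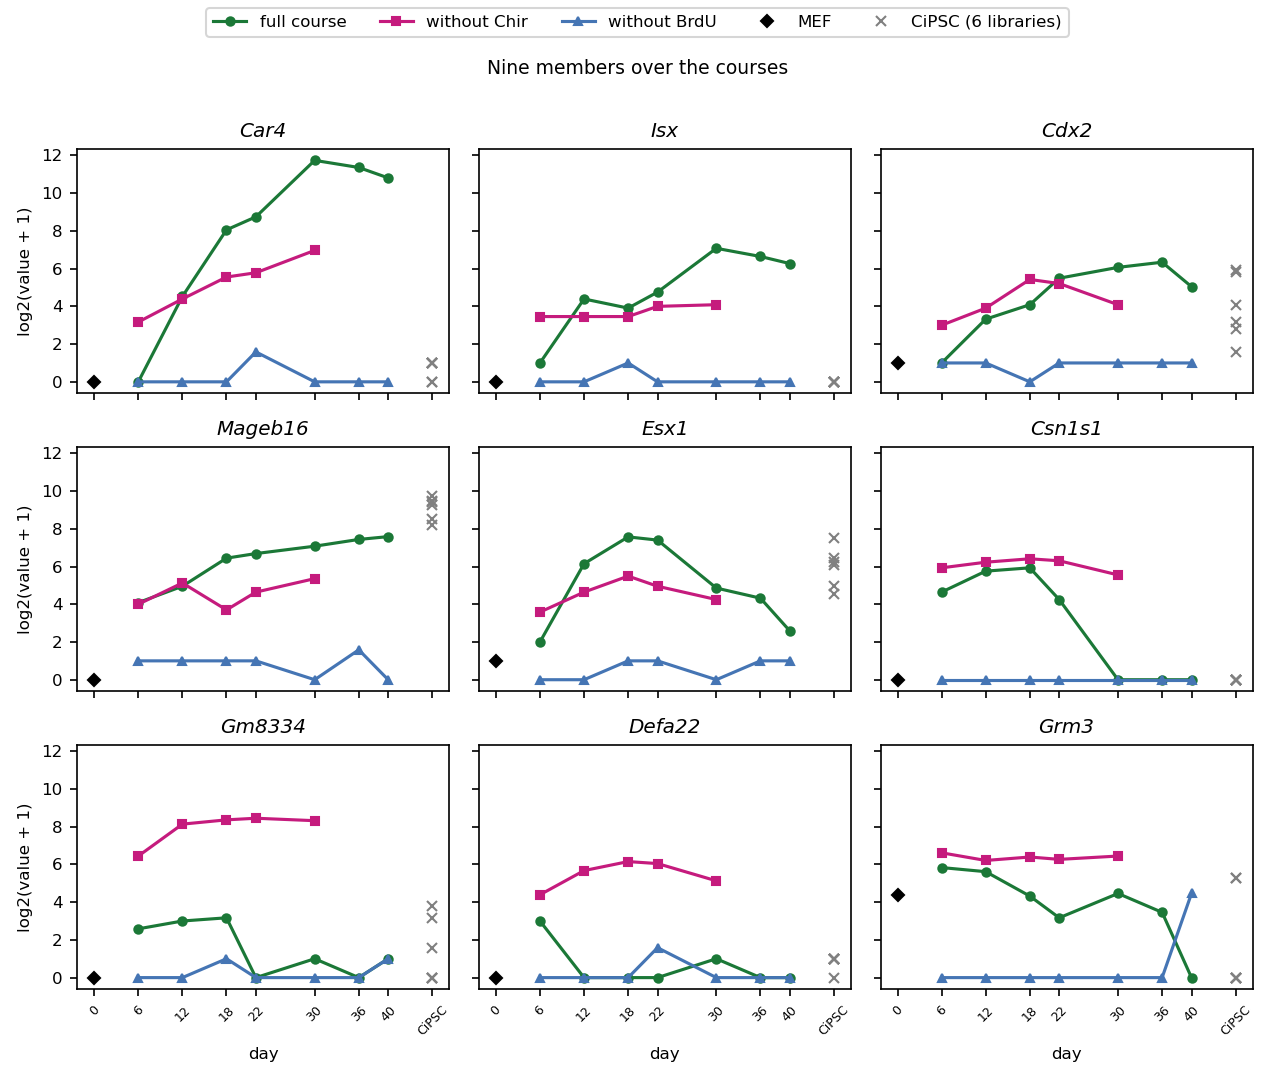
Value (log axis of value + 1) against day for 9 members, 1 panel each, in the full course, minus Chir and minus BrdU, with MEF at day 0. Car4, Isx, Cdx2 and Mageb16 climb in the full course, Csn1s1 goes to 0 there after day 22, and Gm8334 and Defa22 stay low there while high without Chir.

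The first question that independent libraries could address was which members changed over the full course. Neither MEF nor the full course entered the rule. In a limma fit of log2(value + 1) with day as the predictor, taking MEF as day 0, 5 of the 56 members tested rose (Benjamini-Hochberg adjusted p below 0.05 over all genes), against 9.31% of all genes tested, and none fell, against 7.42%. Unadjusted, 14 members had p below 0.05. Days were the only repeats, successive days are not independent, and the p-values measure the spread around a straight line through 1 library a day.

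Car4 rose by 3.19 ± 0.39 (SE) log2 units per 10 days (limma adjusted p = 0.0022), from 0 in MEF and on day 6 to 1792 on day 40. Isx rose by 1.67 ± 0.25 (adjusted p = 0.00451), Mageb16 by 1.57 ± 0.29 (adjusted p = 0.00929) and Cdx2 by 1.33 ± 0.25 (adjusted p = 0.00902). Gm10696 (Spopfm2 in RefSeq) rose by 0.94 ± 0.23 (adjusted p = 0.0234), but its full course values were 0, 0, 0, 4, 6, 4 and 10, and setting values below 5 to 5 gave an adjusted p of 0.205. The call was also lost without day 6, 30, 36 or 40. Car4, Isx and Mageb16 kept their calls in each of the alternatives run, and Cdx2 lost its call only without MEF and with values below 5 set to 5 (adjusted p = 0.0612).

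The falling side of this fit differed without the MEF library. Over the 7 days alone, 6 members rose, against 8.46% of all genes, and 8 fell, against 9.16%. The 8 were Csn1s1 (-1.96 ± 0.41 log2 units per 10 days, adjusted p = 0.0142), Grm3 (-1.29 ± 0.34, adjusted p = 0.0335), Adrb1, the beta-1 adrenergic receptor (-1.27 ± 0.36), Mcpt4 (-1.13 ± 0.22), Gm15056 (-1.11 ± 0.31), Gm8817 (-0.98 ± 0.28), Pnma2 (-0.82 ± 0.21) and Qrfpr (-0.81 ± 0.23). Ifi27l2b, of an interferon-induced family, joined the rising members (1.29 ± 0.35, adjusted p = 0.037). Of the 8 that fell, 6 were at 0 in MEF, Grm3 was at 20 and Adrb1 at 2. With values below 5 set to 5, none of the 8 and not Ifi27l2b kept its call, the nearest being Grm3 (adjusted p = 0.0569), Qrfpr (0.0677) and Csn1s1 (0.0687), and Pnma2 had 0.541.

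Days 30 to 40 of the full course were then set against days 12 to 22. Of 52 members tested, 4 were higher late, against 6.81% of all genes, and 6 lower, against 7.79% (18 at an unadjusted p below 0.05). Csn1s1 (53, 60 and 18, then 0 on all 3 late days; limma adjusted p = 0.00182) and Skint10, of the Skint family (14, 11 and 21, then 0; adjusted p = 0.00305), were both listed at 0 late. Adrb1 went from 14, 21 and 20 to 2, 0 and 0 (adjusted p = 0.00744), and Esx1 from 70, 189 and 168 to 28, 19 and 5, a change of -3.12 ± 0.64 (adjusted p = 0.0185). Late days lay below early days without overlap for these 4. Csn1s1 and Skint10 are tied at 0 late, so their p-values rest on the early days and on the spread of other genes. Both passed the filter on low values only through the early days, which favours the lower direction.

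Mcpt4 (adjusted p = 0.0308) and Gm8817 (adjusted p = 0.0328) completed the lower members, at values of 10 or below throughout. Among the higher, Isx went from 20, 14 and 26 to 134, 99 and 76, a change of 2.31 ± 0.33 (adjusted p = 0.00552), and Car4 from 22, 265 and 428 to 3414, 2628 and 1792, a change of 4.19 ± 0.98 (adjusted p = 0.0299). Ifi27l2b went from 1, 1 and 0 to 19, 20 and 9, a change of 3.35 ± 0.54 (adjusted p = 0.00874), and Hsd11b2 from 0 on all 3 days to 6, 6 and 4 (adjusted p = 0.0144). Mcpt4 and Gm8817 were at 0 on every late day and Hsd11b2 on every early day. The same limit holds for these 3, with the filter favouring the higher direction for Hsd11b2. With values below 5 set to 5, the calls for Isx, Csn1s1, Adrb1 and Skint10 remained, and the other 6 were lost: Ifi27l2b (adjusted p = 0.0567), Esx1 (0.0689), Car4 (0.101), Hsd11b2 (0.238), Gm8817 (0.385) and Mcpt4 (0.519). The change of Hsd11b2 was then 0.15 and that of Mcpt4 -0.07. Car4 also lost its call without day 18, 30, 36 or 40, and Esx1 without day 18, 22 or 36.

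The second question was whether members silent early without BrdU stayed so on days 36 and 40, the only libraries of that course outside the rule. On both days 47 of 61 members were at 1 or below, against 8.83% of all genes. Among the 1005 genes that met the minus BrdU condition, members included, 79.6% were at 1 or below on both days, and 47 of 61 is near that share. The 4 members at 5 or more on either day were Grm3 (0 and 21), Coro1a (9 and 9), Gm15056 (6 and 0) and Dnah7a, an axonemal dynein heavy chain (11 and 0). Of all genes, 87.0% were at 5 or more on either day.

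In the limma fit of minus BrdU against the full course on those 2 days, 20 of the 37 members tested were lower without BrdU, against 23.5% of all genes, and 1 was higher, against 24.0% (23 at an unadjusted p below 0.05). The members were chosen as silent in this course, most such genes stayed so, and a member at or near 0 in both courses could not pass the filter on low values. A member was therefore tested mostly because its full course value was high, which favours the lower direction, so nothing is read from these counts against the background. The values below show which members were on late in the full course. Each p sets the gap against a spread drawn from 2 libraries a side and from other genes. Where both minus BrdU values were 0, as for Car4, Isx, Ifi214 and Selplg, that side has no spread. Hamp, Gm3512, Gm13078 and 1700024B05Rik were tied within each course, so their spread is drawn wholly from other genes. No call, for a member or any other gene, was left in limma when either minus BrdU library was left out, and 19 members without day 36 and 21 without day 40 then had an unadjusted p below 0.05.

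Car4 stood at 2628 and 1792 in the full course on days 36 and 40 and at 0 on both days without BrdU (limma adjusted p = 0.00351). Isx stood at 99 and 76 against 0 and 0 (adjusted p = 0.00394), 1700024B05Rik at 13 and 13 against 0 and 0 (adjusted p = 0.00478, with a spread drawn wholly from other genes), and Ifi214, of the interferon-inducible p200 family, at 16 and 13 against 0 and 0 (adjusted p = 0.00496). Selplg stood at 12 and 14 against 0 and 0 (adjusted p = 0.00496). Mageb16 had 172 and 191 against 2 and 0 (adjusted p = 0.00733) and Cdx2 had 80 and 32 against 1 and 1 (adjusted p = 0.00998). The higher member was Coro1a, at 0 and 1 in the full course and 9 and 9 without BrdU (2.82 ± 0.46, adjusted p = 0.0186), beside macrophage marker sums of 221 and 214 in the full course and 400 and 381 without BrdU.

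Setting values below 5 to 5 left 10 of the 21 calls: Coro1a higher, and Car4, Isx, Ifi214, Selplg, Mageb16, Cdx2, 1700024B05Rik, Gm3512 and Map3k21 lower. The other 11, Tbx20, Boll, Defa3 and Hsd11b2 among them, were lost. The floor ties the low course at 5, so a call then rests mainly on how close the other course's values lie. Gm3512, Coro1a and 1700024B05Rik were tied in both courses, with a spread drawn wholly from other genes. Gm3512, at 7 on both full course days, kept its call at a change of -0.415. Boll (-1.89) and Tbx20 (-1.52) lost theirs, so a kept call is no measure of a stronger difference. Boll stood at 14 and 32 and Tbx20 at 26 and 10 in the full course, and both at 0 without BrdU.

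**Figure D3:**
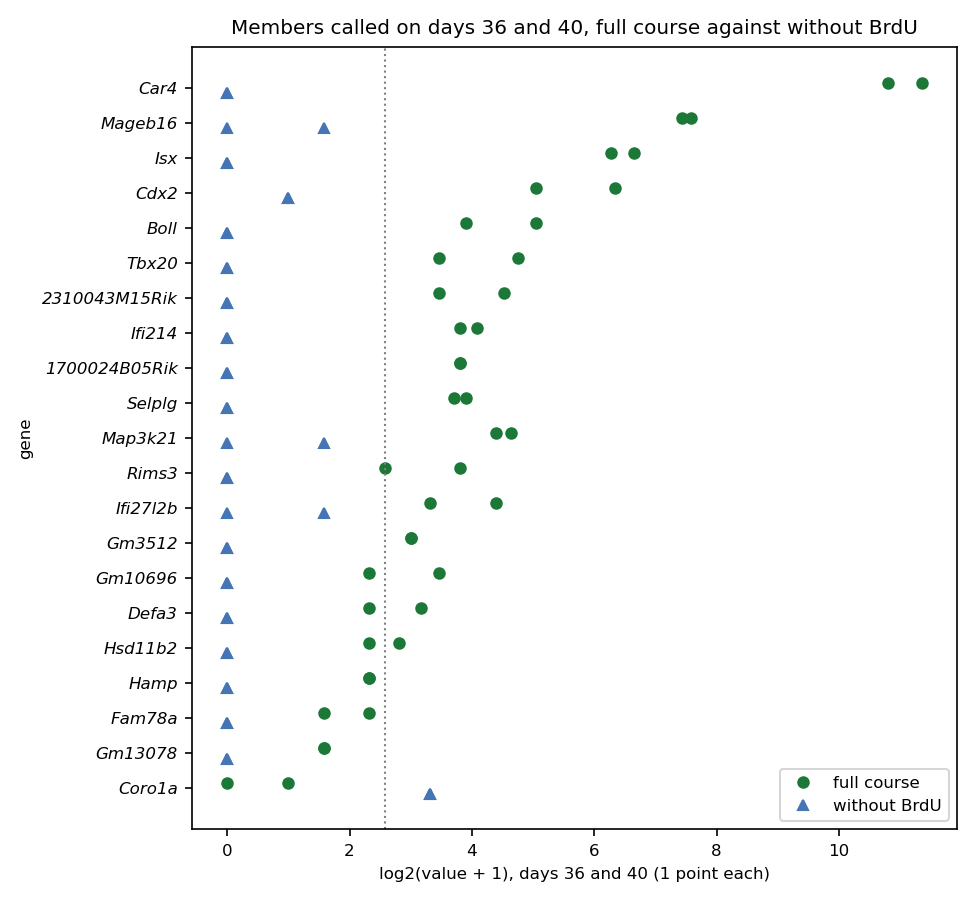
Values (log axis of value + 1) on days 36 and 40 of the full course and of minus BrdU for the 21 members that differed in limma. The dotted line marks a value of 5, the level to which lower values were set in the repeat of the test. All but Coro1a have both full course points above both minus BrdU points.

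The third comparison set full course days 36 and 40 against the 6 CiPSC libraries. Of 45 members tested, 8 were higher at the end of the course, against 21.4% of all genes, and 7 lower, against 25.4% (17 at an unadjusted p below 0.05). Car4 was at 2628 and 1792 against at most 1 in CiPSC (limma adjusted p = 5.71e-06), and Isx at 99 and 76 against 0 in all 6 (adjusted p = 6.29e-06). Map3k21 (24 and 20), Ifi214 (16 and 13) and Ifi27l2b (20 and 9) were also listed at 0 in all 6 CiPSC libraries (adjusted p = 1.39e-05, 2.47e-05 and 7.6e-05). None of these 5 exceeded 1 in any CiPSC library. For Isx, Map3k21, Ifi214 and Ifi27l2b the CiPSC spread is 0, since all 6 values are tied at the lowest rank. Their small p-values therefore rest on the full course days and on the spread of other genes. Members at 0 in CiPSC also passed the filter on low values only through the full course, which favours the higher direction.

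Fam78a was lower at the end of the course (2 and 4) than in CiPSC (54 to 86, median 79.5), by -4.30 ± 0.33 (limma adjusted p = 3.43e-05). Rims3, a presynaptic active zone protein, had 5 and 13 against 48 to 172 (-3.22 ± 0.51, adjusted p = 0.00127), and Pnma2 had 0 and 0 against 4 to 26 (adjusted p = 0.00229). Coro1a had 0 and 1 against 6 to 22 (adjusted p = 0.00277). Pnma2 and Coro1a passed the filter on low values through CiPSC, which favours the lower direction. With values below 5 set to 5, the adjusted p was 0.14 for Pnma2 and 0.121 for Coro1a. Mageb16, at 172 and 191, was still below CiPSC by -1.59 ± 0.40 (adjusted p = 0.0112), a call lost when either late day was left out. Fam78a overlaps Nup214 on the opposite strand, and its reads could be mixed with those of that gene.

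In all, 32 members were at 5 or less in all 6 CiPSC libraries, against 9.15% of all genes, and 8 were above 5 in all 6, against 69.9%. MEF was at 2 or less for 51 members, against 14.4%. Both that and a full course mean of 5 or more on days 6 to 30 held for 20 members, against 7.36% of all genes. Most of that gap comes from the MEF condition. Of those at 2 or less in MEF, 20 of 51 members had such a mean, against 1230 of 2411 genes. On that footing the share was lower for members than for all genes. Members at 5 or more in MEF were 8: Coro1a, Grm3, Ifi27l2b, Selplg, Tbx20, Tnfaip8l3, 2310043M15Rik and Gm10825. These counts are of low genes chosen as low in another course, and were not tested.

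Marker and pathway lists held few members, and only Cdx2 and Esx1 stood on any of the 15. In late BrdU omission, 8 of the 16 Wnt beta-catenin targets tested were lower and 4 higher (median -1.11, against 0.04 over all genes), and 6 of 11 trophoblast genes were lower and none higher (median -3.20). Of all genes, 23.5% were lower and 24.0% higher, and all these calls are lost when either minus BrdU library is left out. Over the full course, 3 of 16 Wnt targets rose and 1 fell, and 3 of 11 trophoblast genes rose and none fell, with medians of 0.47 and 0.58 log2 units per 10 days, against 0.01 over all genes, of which 9.31% rose and 7.42% fell. Cdx2 was among the rising and the lower genes of both lists.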

How the data were processed

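RNA was extracted with TRIzol, made into TruSeq libraries and read on a NextSeq instrument, per the labels' protocols. RSEM, Bowtie2, bcl2fastq and the mm10 build stand in the submitters' processing notes; no versions, annotation or normalization are given in the sources used here. The table the authors deposited (16718 genes, 26 libraries) was treated here as a score. Its name says CPM, but all libraries share nearly 1 distribution (quantile-normalized) in whole numbers. The test design assumed normalized values without naming their kind, and limma was kept. Counts could not be recovered, so no count model was run.

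From these values, log2(value + 1) was computed and fitted in R 4.3.3 with limma 3.58.1 (intensity trend in the prior variance, two-sided) over all genes with a mean of at least 1 in the libraries of a fit. Calls were made at an adjusted p (Benjamini-Hochberg) below 0.05. The script was tested on simulated data. The labels do not say that libraries came from separate cultures, so p-values measure only the spread between these samples, which may be technical. Late minus BrdU libraries were compared with the full course without a day block, since the days do not pair them (r = 0.0361 between same-day deviations). Alternatives were the pseudocount, the filter, the intensity trend, the day block, a floor of 5 and leaving out each library.

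The members and gene lists were chosen with earlier results of these data known. Genes named are the 12 highest without Chir, members on a list, the 5 with the smallest p in each direction of each test, those at the bounds of the rule, and others by function. Positions are from GENCODE M21 (all 61 matched) and promoter windows from RefSeq.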

Additional observations from a re-analysis of the deposited data

Results flagged for a closer look

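Within the 6 CiPSC libraries, 1 library stood apart from the other 5 on the log2(value + 1) scale for 7 of the 29 members that exceeded 5 in at least 1 of them. The gap to the nearest library, divided by the range of the group, was above the critical value of Dixon's test at the 95% level. Chance passes that limit in about 1 of 20 groups of continuous, normally distributed values. The values here are whole numbers with many at 0, so that rate need not hold. Low outlying values were 8 for 2310043M15Rik in library 2, 54 for Fam78a in library 6, 0 for 1700024B05Rik in library 4 and 2 for Gpx6 in library 5. High outlying values were 8 for D930032P07Rik in library 2, 39 for Skint10 in library 1 and 14 for Defa3 in library 5, each with the other 5 at 0. Where 5 libraries are at 0, any single higher value passes the limit whatever its size. The low values of 1700024B05Rik and Gpx6 lie below 5, where order in the table can set a value. D930032P07Rik overlaps Glis3 on the opposite strand.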

How the results depend on the processing

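No member called in a main fit changed direction under any alternative that was run. Some members without a call did: without MEF, the full course slope of Boll went from 0.28 to -0.50 log2 units per 10 days. That of Esx1 went from 0.38 to -0.29. Setting values below 5 to 5 was chosen after seeing the data. It left 10 members called of 21 in late BrdU omission, and 4 of 10 between days 30 to 40 and days 12 to 22. Over the full course without MEF it left 4 members (3 rising, and Gm10825, named after its value was seen, falling) and 2137 genes. A filter at a mean of 5 left 12 in late BrdU omission. Leaving out 1 library at a time gave 1377 to 2862 genes called over the full course (2729 with all; 1377 without day 36 and 1684 without day 40) and 4 to 14 members (5 with all; 14 without MEF). It gave 0 to 2386 genes in late BrdU omission (7649 with all; 0 without either minus BrdU library, 2386 and 1960 without day 36 or day 40 of the full course) and 0 to 23 members. Between days 30 to 40 and 12 to 22 it gave 892 to 2281 genes (2367 with all; 892 without day 18, 1017 without day 36, 1019 without day 40) and 5 to 13 members (6 without day 18, 5 without day 36). Against CiPSC it gave 4381 to 7738 genes (7548 with all; 4381 with day 40 only) and 10 to 17 members. With day as a replicate block, late BrdU omission called 6718 genes and 18 members, losing Fam78a, Gm13078 and Ifi27l2b (adjusted p = 0.0643, 0.0764 and 0.0825); the days did not pair the samples. A group left with 1 library was assumed to vary like the others.

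Each course had 1 library per day, so no comparison has a culture-level repeat. The depth behind a value is unknown, and values below 5 partly follow the order of genes in the table. Of the members, 17 lie below the last gene listed at 0 in the CiPSC library where that row comes first, so their low CiPSC values cannot be 0 there. The group of the CiPSC libraries and any batch of their own cannot be told apart.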

Other observations

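The opposite pattern, 5 or more on all 5 days without BrdU and a mean of 1 or less without Chir, was shown by 10 genes, against 69 for the pattern of the members before symbols were left out. On days 6 to 30, 1145 to 1479 genes were at 0 in a minus BrdU library and 1055 to 1177 in a minus Chir library. The silent condition need not be equally easy to meet in both courses, so nothing is read from 10 against 69. The 10 were Pcdhb16, Gm9797, Ndufa4l2, Npy5r, Caln1, Barx2, Upk3b, D630039A03Rik, Syt3 and Tspyl3. Ndufa4l2, a mitochondrial protein, reached 297 and 410 on days 18 and 22 without BrdU. Upk3b, a uroplakin of urothelium and mesothelium, reached 60 and 108 on the same days, and was at 66 in MEF. Gm9797 had 0 on all 5 days without Chir and at least 13 on days 6 to 36 without BrdU. These values are a description, since they chose the genes.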
